A study of Homo sapiens with 14 samples.

Results

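Retained intron transcripts are annotated RNAs in which sequence that other transcripts of the same gene splice out as an intron is kept inside an exon. They were taken as every transcript whose class in the deposited transcript names is retained intron, a rule that uses no measured value. The rule was nevertheless set with earlier results of these data known. There were 34065 such transcripts among 252048 (13.5%), and they belonged to 10139 of 62749 genes. Of the 9742 genes with a mean TPM (a level corrected for transcript length and scaled to the same total in each library) of at least 5 over all libraries, 6009 (61.7%) had at least 1 of them.

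The 14 libraries came from tumours that UMUC3 cells, a human bladder cancer line, formed in mice. Group names give the cells and the medium they were kept in before engraftment. Control cells, titled as carrying a control sh construct, were grafted after regular medium (control, n = 3) or after 10% cigarette smoke media, CSM (control after CSM, n = 4). Cells with knockdown of FASN, which encodes fatty acid synthase, were grafted after regular medium (knockdown, n = 3) or after CSM (labelled knockdown after CSM, n = 4). The labels do not give the knockdown method, the length of exposure, the mouse strain or age, or whether each library is a different animal. The p-values therefore describe the spread among libraries, part of which may be technical.

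An intron that stays in a finished transcript usually carries stop codons or keeps the RNA in the nucleus, so such transcripts seldom make the full protein. Some genes, many of them encoding splicing factors and their kinases, hold a pool of RNA with a detained intron that can be spliced later. Weak splice sites, short length and high GC content are features known for introns that are often retained.

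Several properties of the libraries bear on the values. Total counts ran from 15810287 to 45209466 per library, and 7SL RNA, the RNA of the signal recognition particle, took 2.64% to 25.6% of them, with more than 15% in knockdown replicate 2 and control after CSM replicate 3. The libraries were divided by the mean fragment length that their effective lengths imply. A short set of 6 had 161 to 176 bases and a long set of 8 had 182 to 203 bases. The cut between 176 and 182 bases was a chosen setting. A wider step, from 162 to 171 bases, lies inside the short set, so the lengths by themselves do not mark these sets. Both sets held libraries of each group. FASN itself was at 108, 74.6 and 161 CPM in the knockdown libraries against 582, 390 and 369 in control. After CSM it was at 261, 169, 354 and 553 CPM in the labelled knockdown libraries against 459, 483, 330 and 359 in control. Labelled knockdown replicate 4 thus goes against its label, and replicate 3 lies within the range of the control libraries. Results given below without replicate 4 still include replicate 3. Among 21 markers of host fibroblasts, endothelium, leukocytes, fat and muscle, 16 had a mean below 1 CPM, and none was at 0 in every library. Their summed level was 14.6 to 21.5 CPM in control, 11.7 to 43.9 in knockdown, 11.1 to 18.9 in control after CSM and 19.0 to 26.4 in labelled knockdown after CSM. Reads were assigned to human transcripts, so RNA of the mouse host is counted only where it matches them. The marker levels therefore do not measure how much host RNA the libraries held. The line's mesenchymal markers VIM and CDH2 averaged 2002 and 78.6 CPM, and the epithelial keratins KRT8 and KRT18 averaged 93.3 and 145. The other epithelial markers EPCAM, KRT19, CDH1 and KRT7 averaged 0.0130, 0.0512, 0.571 and 2.21 CPM. Mean CDH2 was 38.6 CPM in control and 125 in knockdown. After CSM it was 37.4 in control and 115 in labelled knockdown.

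The retained introns could be placed for the transcripts that match the GENCODE release 29 annotation of GRCh38 by versioned identifier and length, 27391 of the 34065. Of these, 26494 held at least 10 bases of an intron of a coding transcript. A complete intron was kept by 7921 (28.9%), and 18573 held part of an intron in an exon but no complete intron. The complete ones covered 8753 distinct introns in 3975 genes, with a median length of 254 bases and a median GC content of 56.7%. Of these introns, 97.2% began with GT and ended with AG, and 93.4% had coding sequence on both sides.

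Retained introns of 5 genes are printed because the results below describe these genes: FASN, the splicing kinase gene CLK1, the splicing factor gene HNRNPH1, the methionine adenosyltransferase gene MAT2A, and MTMR11, whose fraction separates groups after CSM. They were chosen after values were seen. All 5 introns lie between coding exons. The sequences are those of GENCODE release 29 transcripts on GRCh38, read 5′ to 3′ on the strand of the gene. The capitals mark the 5′ splice site (the last 3 exon bases and first 6 intron bases) and the 3′ splice site (the last 20 intron bases and first 3 exon bases), and the remaining flanking exon bases are in lower case. In FASN-202 the intron lies at chr17:82080591-82080691 on the minus strand (101 bases, 69.3% GC).
FASN-202: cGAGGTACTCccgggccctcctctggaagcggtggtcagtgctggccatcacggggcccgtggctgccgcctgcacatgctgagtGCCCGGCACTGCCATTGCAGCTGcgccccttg
In CLK1-212 it lies at chr2:200861467-200861701 on the minus strand (235 bases, 31.5% GC).
CLK1-212: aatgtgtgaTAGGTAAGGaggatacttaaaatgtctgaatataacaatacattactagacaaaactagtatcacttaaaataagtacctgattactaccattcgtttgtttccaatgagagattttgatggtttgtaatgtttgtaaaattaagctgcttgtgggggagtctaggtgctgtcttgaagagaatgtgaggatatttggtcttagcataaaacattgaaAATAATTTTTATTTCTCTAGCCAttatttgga
In HNRNPH1-223 it lies at chr5:179621036-179621241 on the minus strand (206 bases, 37.4% GC).
HNRNPH1-223: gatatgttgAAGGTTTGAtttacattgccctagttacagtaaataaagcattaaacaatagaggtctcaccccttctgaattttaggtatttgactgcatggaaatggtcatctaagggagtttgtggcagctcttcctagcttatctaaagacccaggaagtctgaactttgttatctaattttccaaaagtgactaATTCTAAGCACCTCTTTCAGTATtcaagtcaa
In MAT2A-205 it lies at chr2:85542374-85542564 on the plus strand (191 bases, 34.0% GC).
MAT2A-205: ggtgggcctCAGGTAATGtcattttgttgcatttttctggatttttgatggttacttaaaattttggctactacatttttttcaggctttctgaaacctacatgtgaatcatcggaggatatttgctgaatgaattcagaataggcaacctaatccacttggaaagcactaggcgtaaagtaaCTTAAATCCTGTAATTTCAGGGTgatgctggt
In MTMR11-208 it lies at chr1:149933699-149933854 on the minus strand (156 bases, 56.4% GC).
MTMR11-208: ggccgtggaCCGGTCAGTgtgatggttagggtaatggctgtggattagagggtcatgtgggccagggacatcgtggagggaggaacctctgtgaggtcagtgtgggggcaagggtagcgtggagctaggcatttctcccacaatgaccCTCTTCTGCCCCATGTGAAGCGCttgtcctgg

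The 5 printed introns are all shorter than the median located intron. The FASN intron is short and GC-rich, whereas those of CLK1, HNRNPH1 and MAT2A are longer and AT-rich, with GC contents below the median of all located introns. All 5 have GT at the start and AG at the end, and the following letters are those printed. Pyrimidines made up 61.1% of the 18 bases before the closing AG in FASN and 72.2% in CLK1.

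As a class, retained intron transcripts were short, with a median length of 895 bases against 1784 for protein-coding transcripts and 1647 for transcripts of the nonsense-mediated decay class. Protein-coding genes held 97.2% of them. BBS2, a subunit of the ciliary BBSome, and FANCL, a ubiquitin ligase of the Fanconi anaemia pathway, had 58 each, the most of any gene. Counts above 0 were found for 29854 in at least 1 library and for 7296 in all 14, and 4211 had no count in any library. Between 11497 (knockdown replicate 2) and 22757 were detected per library.

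Retained intron transcripts took a larger part of the RNA in the labelled knockdown libraries after CSM than in control after CSM. Their share of counts was 5.53%, 5.24% and 5.35% in control and 4.77%, 3.14% and 7.11% in knockdown. After exposure to CSM it was 6.08%, 4.76%, 3.64% and 4.99% in control, and 8.88%, 6.38%, 7.52% and 6.82% in the labelled knockdown libraries. In these bulk libraries fewer cells of a kind and less RNA per cell cannot be told apart. After CSM every labelled knockdown library lay above every control library, whereas in regular medium the 3 knockdown libraries lay on both sides of the narrow control range. The 95% Wilson interval of any single share was at most 0.0104 percentage points to either side, which covers counting error only, so the spread between libraries is far wider than the counting error.

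After CSM the mean share of counts was 7.40% ± 1.10 (SD, n = 4) in labelled knockdown and 4.87% ± 1.00 (SD, n = 4) in control. The difference of 2.53 percentage points gave p = 0.0286 in an exact two-sided permutation test, the smallest p that 4 against 4 allows, and 0.229 after Benjamini-Hochberg adjustment over the 8 tests of shares. Without labelled knockdown replicate 4 the difference was 2.73 points (exact permutation p = 0.0571, the smallest that 3 against 4 allows). Without the libraries with more than 15% 7SL it was 2.12 points with the same p. The other contrasts of the share of counts had overlapping groups. Knockdown against control in regular medium differed by -0.365 points (exact permutation p = 0.7, with 0.1 as the smallest possible), CSM against regular medium by -0.503 points in control cells (p = 0.514) and by 2.39 points in knockdown cells (p = 0.171, with 0.0571 as the smallest possible). The knockdown difference after CSM minus that in regular medium was 2.90 points (exact permutation p = 0.0580 over 1225 arrangements of the medium labels). Labels were rearranged within each kind of cells, so this p refers to no effect of medium in either kind. By itself it does not test whether the knockdown differences are equal in both media.

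On the TPM scale, which weights short transcripts more than counts do, the groups after CSM overlapped. The share of TPM was 3.36%, 3.45% and 3.63% in control, 2.60%, 1.27% and 5.57% in knockdown, 4.37%, 3.52%, 1.77% and 3.80% in control after CSM, and 8.43%, 3.75%, 5.91% and 5.58% in labelled knockdown after CSM. Replicate 2 of the last group lay below 2 of the control libraries after CSM. The means after CSM were 5.92% ± 1.93 (SD, n = 4) and 3.37% ± 1.12 (SD, n = 4), and the difference of 2.55 points gave p = 0.0857 in the exact permutation test (0.305 after Benjamini-Hochberg adjustment). Restricted to transcripts of protein-coding genes, the difference was 3.56 points of TPM (exact permutation p = 0.0286, the smallest possible, 0.114 adjusted over the 8 tests of that setting), and without 7SL in the total it was 3.15 points with the same p-values.

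**Figure D1:**
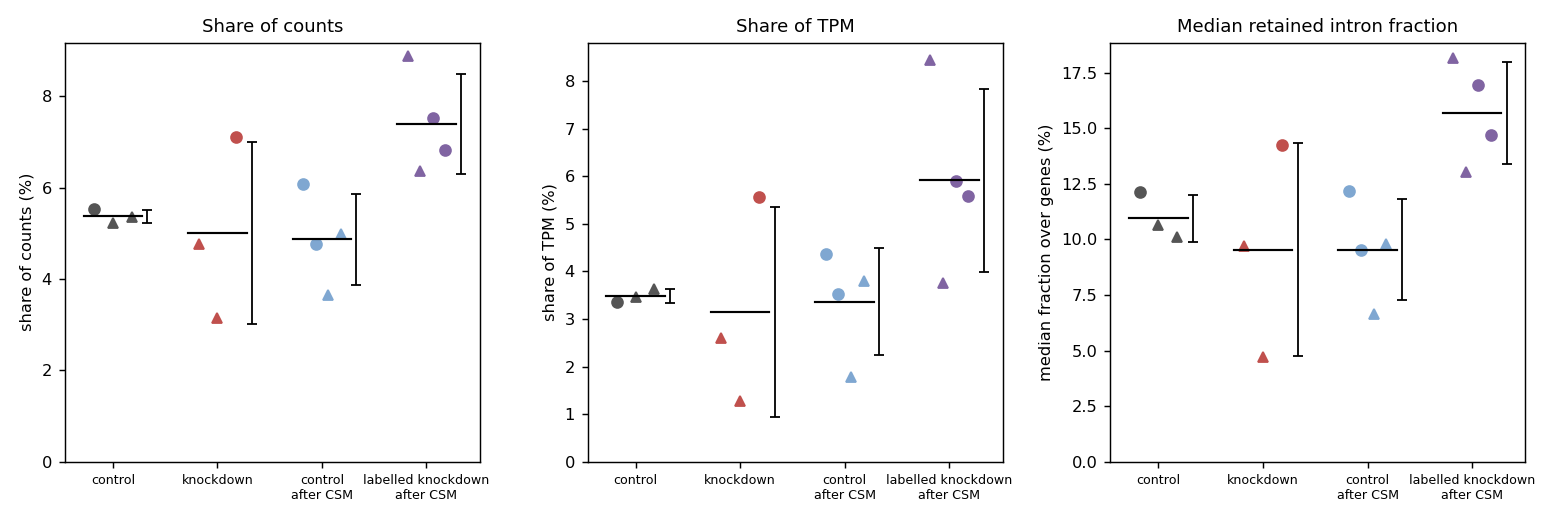
Share of counts, share of TPM and median gene fraction of retained intron transcripts in each of 14 libraries, in percent; circles are libraries of the short fragment set, triangles of the long set, the line is the group mean and the bar 1 SD. In the share of counts and the median fraction every labelled knockdown library after CSM sits above every control library after CSM.

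The share moved with other measures of the libraries. Transcripts of lncRNA class took 3.57% to 3.83% of counts in control, 2.12% to 5.62% in knockdown, 2.31% to 4.2% in control after CSM and 4.57% to 9.05% in labelled knockdown after CSM. MALAT1, a nuclear lncRNA, was at 9003 to 13164 CPM in control, 3712 to 15181 in knockdown, 5112 to 12678 in control after CSM and 12502 to 40782 in labelled knockdown after CSM. The summed level of olfactory receptor genes was 126 to 164 CPM in control and 134 to 319 in knockdown. After CSM it was 104 to 139 CPM in control and 243 to 438 in labelled knockdown. The part of these measures in the difference was not tested. Within the short fragment set the mean share of counts after CSM was 7.17% in 2 labelled knockdown libraries and 5.42% in 2 control libraries, and within the long set it was 7.63% and 4.32%, so the direction was the same in both.

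The retained intron fraction of a gene is the TPM of its retained intron transcripts divided by the TPM of all its transcripts. It could be formed for 6007 genes with a mean TPM of at least 5 and at least 1 other transcript, 20 of which had no retained intron TPM in any library. Just inside the limit lay ZNF101 and PCK2 (mean TPM 5.00 and 5.01), and just outside it STIM2 and IQCN (4.99 and, rounded up from just under the limit, 5.00). The median of the mean fraction was 12.9%. Retained intron transcripts made up more than 50% of the gene's TPM in 369 genes (6.14%) and less than 5% in 1470 (24.5%). The most abundant were spread over many genes, because the first 50% of all retained intron TPM was held by 481 genes and the 12 leading genes held 12.3% of it.

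The median fraction over genes was 12.1%, 10.6% and 10.1% in control and 9.69%, 4.69% and 14.2% in knockdown. In the libraries after CSM it was 12.2%, 9.50%, 6.66% and 9.78% in control and 18.2%, 13.0%, 16.9% and 14.7% in the labelled knockdown libraries. The typical gene thus had a higher fraction in each labelled knockdown library after CSM than in any control library after CSM, with means of 15.7% ± 2.30 (SD, n = 4) and 9.53% ± 2.26 (SD, n = 4). The difference was not limited to the middle of the distribution, because the fraction reached by the top 25% of genes was 29.4% to 36.9% in the labelled knockdown libraries and 20.4% to 27.0% in control after CSM. Within the short fragment set the means after CSM were 15.8% and 10.8%, and within the long set 15.6% and 8.22%.

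**Figure D2:**
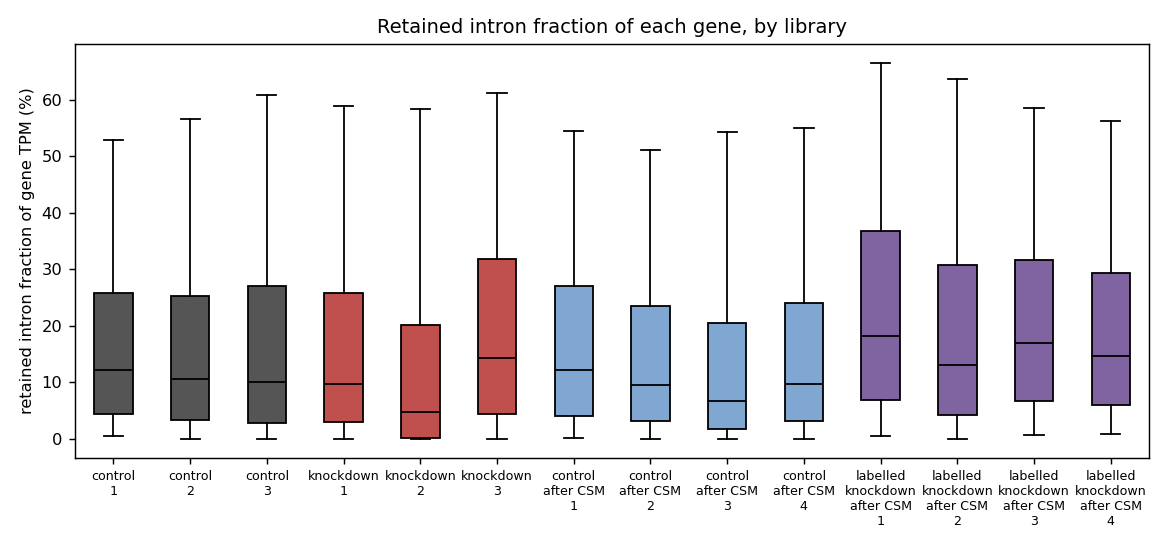
Retained intron fraction of 6007 genes in each library, in percent of the gene's TPM; the line is the median, the box spans the 25th to 75th percentile and the whiskers the 5th to 95th. The labelled knockdown libraries after CSM have medians of 13.0% to 18.2%, and knockdown replicate 2 has the lowest median, 4.69%.

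The genes that contributed most retained intron TPM were mostly ribosomal protein and housekeeping genes. In order of mean retained intron TPM they were RPL4, RPS23, RPL14 and RPS28 (ribosomal proteins), RPL8 (also ribosomal), EEF1A1 (a translation elongation factor), ACTB (beta actin), CCND1 (cyclin D1), DRAP1 (a transcriptional corepressor subunit), YWHAE (a 14-3-3 protein), HNRNPH1 (a splicing regulator) and CD63 (a tetraspanin). RPL4 had 731 TPM in retained intron transcripts, 45.3% of the gene's TPM, and CD63 had 248 TPM, 26.3%. RPL14 was almost wholly assigned to this class, with a fraction of 93.5% to 99.2% over the 14 libraries, whereas EEF1A1 had 3.23% to 14.0%. For RPL4, RPS23, RPL14, RPL8, EEF1A1, ACTB and DRAP1 the fractions of the short and long fragment sets did not overlap. EEF1A1 had 7.31% to 14.0% in the short set and 3.23% to 7.14% in the long set. ACTB had 1.69% to 26.8% in the short set and 40.0% to 48.4% in the long set. Their adjusted p-values in limma with Benjamini-Hochberg adjustment were at least 0.436 in every contrast of knockdown or medium.

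For HNRNPH1, whose product binds G-rich RNA and which is known for detained introns, the fraction was 56.3%, 53.4% and 49.3% in control and 48.0%, 32.9% and 70.4% in knockdown. After CSM it was 60.0%, 40.5%, 44.5% and 41.5% in control and 71.7%, 59.6%, 69.5% and 54.5% in the labelled knockdown libraries. The groups after CSM overlapped, because control replicate 1 lay above replicates 2 and 4 of the labelled knockdown libraries. The difference was 1.03 (SE 0.50) on the log2 ratio scale described next, with an adjusted p of 0.436 in limma. HNRNPH1-223, printed above, was at 12.5 to 22.6 TPM in 3 of 4 control libraries after CSM, at 8.33 in the other, and at 20.9 to 55.6 in the labelled knockdown libraries. On its counts edgeR gave a log2 fold change of 0.34 (SE 0.33) with an adjusted p of 0.980.

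Usage of retained introns was tested per gene as log2 of retained intron TPM plus 0.5 over the TPM of the gene's other transcripts plus 0.5, so that where both levels are far above 0.5 TPM a difference of 1 is a doubled ratio. Where retained intron TPM is low, the value follows mainly the level of the other transcripts. The limma fit held 13705 combinations of a gene and a noncoding transcript class, 5987 of them retained introns and the rest nonsense-mediated decay, coding sequence not defined and non-stop decay. No retained intron feature passed an adjusted p of 0.05 in any of the 5 contrasts (limma, Benjamini-Hochberg over all 13705), and neither did any other feature (percent called 0.0). The results that follow are therefore values, not changes.

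After CSM, retained intron usage was higher in the labelled knockdown libraries for most genes. The difference was positive in 79.8% of the 5987 genes with a median of 0.49, while over all features it was positive in 58.4% with a median of 0.14. An unadjusted p below 0.05 was reached by 985 genes (16.5%), 954 of them higher, against 11.8% of all features. Every labelled knockdown library lay above every control library in 896 genes (15%), against 8.46% of all features, and below in 9 genes (0.15%) against 0.715%. Among the other classes, 2.57% of nonsense-mediated decay features and 4.24% of features without a defined coding sequence were higher without overlap. Without replicate 4 of the labelled knockdown libraries the count was 1205 genes (20.1%, against 11.7% of all features), and without the libraries with more than 15% 7SL it was 1044 (17.4%, against 10.1%).

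In regular medium the shares lay near the background. The median was 0.07 for retained introns and 0.15 for all features, and the retained intron median turned to -0.11 with 0.1 TPM added in place of 0.5. Here 184 genes had an unadjusted p below 0.05 in limma, 130 of them higher (3.07%, against 3.75% of all features). The knockdown libraries lay above every control in 122 genes (2.04%, against 2.2%) and below in 261 (4.36%, against 4.12%), both near the background. Without the 2 libraries with more than 15% 7SL these counts were 511 genes (8.54%, against 7.81%) and 362 (6.05%, against 6.11%). The difference between the knockdown effects in the 2 media had a median of 0.40, with 396 genes at an unadjusted p below 0.05 (6.61%, against 6.23% of all features), 358 of them with the larger value after CSM.

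CSM against regular medium gave a median of -0.12 in control cells, with 76 genes at an unadjusted p below 0.05 (1.27%, against 1.36%). Control libraries after CSM lay above every control in 40 genes (0.668%, against 1.01%) and below in 192 (3.21%, against 2.55%). In knockdown cells the median was 0.28 against -0.07 over all features, and 532 genes had an unadjusted p below 0.05 (8.89%, against 9.78%), 455 of them higher. The labelled knockdown libraries after CSM lay above every knockdown library of regular medium in 698 genes (11.7%, against 7.08%) and below in 21 (0.351%, against 1.01%). Without replicate 4 the count above was 890 (14.9%, against 9.3%). This contrast and the knockdown contrast after CSM share the labelled knockdown libraries, so their counts are not independent.

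**Figure D3:**
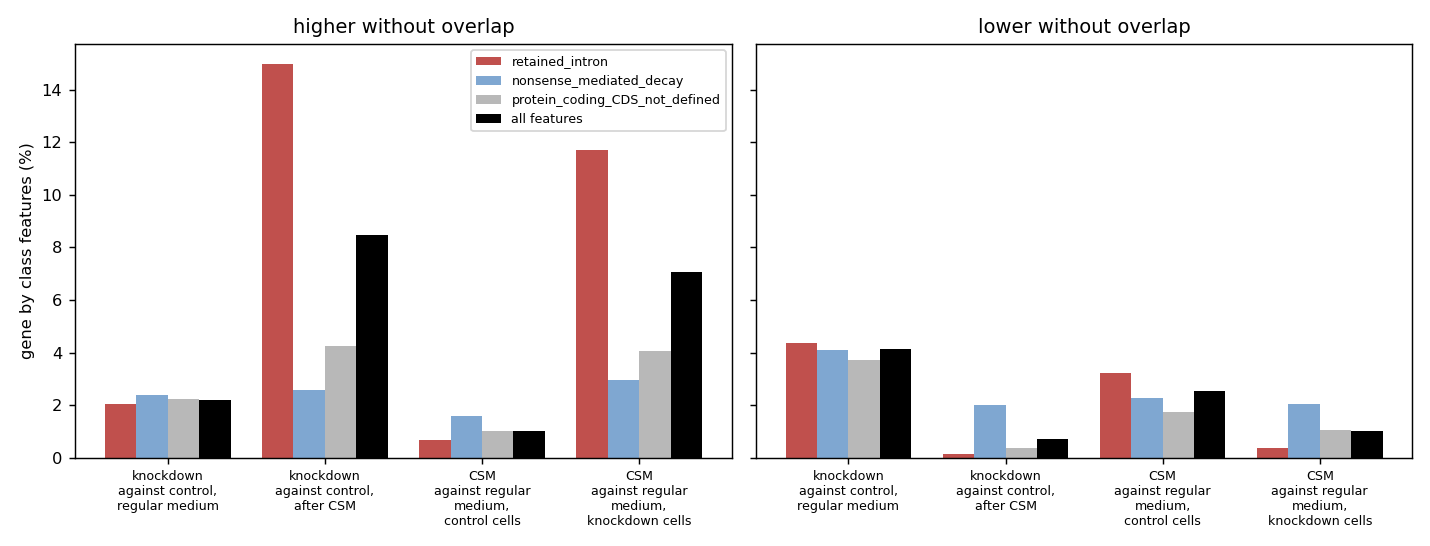
Percent of gene and class features whose groups did not overlap, higher (left) or lower (right), for 4 contrasts and 3 transcript classes beside all 13705 features. Retained introns reach 15% higher after CSM between labelled knockdown and control, against 8.46% of all features, and 2.04% against 2.2% in regular medium.

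FASN, the targeted gene, had a higher retained intron fraction in the knockdown libraries. It was 5.38%, 3.19% and 1.43% in control and 9.29%, 12.2% and 33.2% in knockdown, with no overlap. After exposure to CSM it was 14.8%, 4.22%, 2.03% and 2.86% in control and 21.0%, 9.31%, 26.6% and 25.8% in the labelled knockdown libraries, where control replicate 1 lay above labelled knockdown replicate 2. The usage differences were 2.59 (SE 0.67, limma adjusted p = 0.999) and 2.07 (SE 0.58, adjusted p = 0.337). The level of its retained intron transcripts was 3.61, 1.56 and 0.679 TPM in control and 0.990, 0.872 and 11.4 in knockdown, which overlap, while all FASN transcripts together were at 67.1, 49.1 and 47.6 TPM in control and 10.7, 7.14 and 34.2 in knockdown. In the knockdown libraries of regular medium the denominator of the fraction was thus lower in each library. FASN-202, which carries the intron printed above, was at 0 to 4.96 TPM and at 0 in 3 libraries.

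In regular medium the other genes that the naming rule gave for a higher fraction in knockdown were NME7, of the nucleoside diphosphate kinase family, and PPARA, a nuclear receptor for fatty acids. For PPARA the fraction was 28%, 22.2% and 25.5% in control and 56.0%, 57.8% and 47.5% in knockdown. In the libraries after CSM it was 28.8%, 41.5%, 41.8% and 28.2% in control and 52.4%, 48.8%, 53.1% and 54.1% in labelled knockdown, so the groups did not overlap in either medium. The differences were 1.45 (SE 0.36, limma adjusted p = 0.999) and 0.85 (SE 0.31, adjusted p = 0.351). NME7 had 4.00% ± 0.808 (SD, n = 3) in control and 28.8% ± 11.1 (SD, n = 3) in knockdown, and 3.84% ± 1.65 and 23.7% ± 12.8 (SD, n = 4 each) after CSM. Its groups did not overlap in either medium, with differences of 2.25 (SE 0.55, limma adjusted p = 0.999) and 1.72 (SE 0.47, adjusted p = 0.337).

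Genes with the opposite direction in regular medium were PSMD5, an assembly chaperone of the proteasome, P3H4, of the collagen prolyl hydroxylase family, and PDCD5, a protein linked to cell death. For PSMD5 the fraction was 8.40%, 9.27% and 19.7% in control and 0%, 0% and 2.01% in knockdown. The difference was -2.03 (SE 0.55, limma adjusted p = 0.999), and after CSM it was -0.10 (SE 0.48). In PDCD5 the retained intron TPM was 0 in all 3 knockdown libraries, and the fraction was 2.18%, 10.3% and 18.7% in control.

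After CSM the smallest p-values among genes with a mean retained intron TPM of at least 1 belonged to PMPCB, ANK2 and GEMIN2. PMPCB encodes a subunit of the peptidase that cuts targeting sequences off mitochondrial proteins. Its fraction was 9.26%, 6.49%, 4.28% and 4.43% in control after CSM and 36.2%, 31.0%, 36.9% and 16.7% in labelled knockdown after CSM, with no overlap. The difference was 2.39 (SE 0.46, limma adjusted p = 0.234). In regular medium the values were 9.00%, 9.29% and 8.82% in control and 7.42%, 8.47% and 26.4% in knockdown, where only replicate 3 lay above the controls. The level of the whole gene differed little after CSM, 27.8 ± 1.93 TPM against 25.8 ± 4.33 (SD, n = 4 each), while its retained intron TPM was 8.46 ± 2.95 against 1.60 ± 0.694.

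ANK2 encodes ankyrin-B, which ties membrane proteins to the cytoskeleton, and has 37 retained intron transcripts. After CSM its fraction was 47.0%, 40.8%, 37.3% and 43.4% in control and 77.6%, 78.7%, 70.4% and 69.9% in labelled knockdown. In regular medium it was 48.6%, 47.2% and 43.4% in control and 49.5%, 69.1% and 73.0% in knockdown. Knockdown lay above control without overlap in both media. The differences were 1.65 (SE 0.33, limma adjusted p = 0.234) and 0.84 (SE 0.38, adjusted p = 0.999).

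GEMIN2 acts in the SMN complex that assembles spliceosomal snRNPs. Its fraction was 11.9%, 9.14% and 7.45% in control and 2.54%, 0% and 3.76% in knockdown. After CSM it was 0%, 1.99%, 1.29% and 8.95% in control and 36.7%, 30.2%, 15.7% and 21.6% in labelled knockdown. Knockdown lay below every control in regular medium and above every control after CSM. The interaction, which tests this difference between media, was 2.57 (SE 0.59) with a limma adjusted p of 0.797. Retained intron TPM of GEMIN2 was low, with an average of 1.07 over the libraries.

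Lower values after CSM in labelled knockdown were found in VSIG10, an immunoglobulin domain protein, and GNPDA1, an enzyme of amino sugar metabolism. For VSIG10 the fraction was 36.6%, 39.8%, 47.4% and 37.8% in control after CSM and 28.2%, 22.7%, 21.1% and 28% in labelled knockdown after CSM, with no overlap. The difference was -0.99 (SE 0.32, limma adjusted p = 0.348). GNPDA1 had 15.6%, 11.7%, 5.1% and 11.4% against 0.379%, 0.443%, 8.09% and 3.97%, which overlap, a difference of -1.56 (SE 0.52, limma adjusted p = 0.348). ADGRL3 had the smallest p after CSM (difference 3.12, SE 0.49, limma adjusted p = 0.0959) and falls outside the naming rule, with a mean retained intron TPM of 0.0864. The ADGRL3 fraction was 61.5% in labelled knockdown replicate 1 and 0% in the other 3, against 0.508% to 4.70% in control after CSM, so the groups overlapped. It was named after its values were seen.

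**Figure D4:**
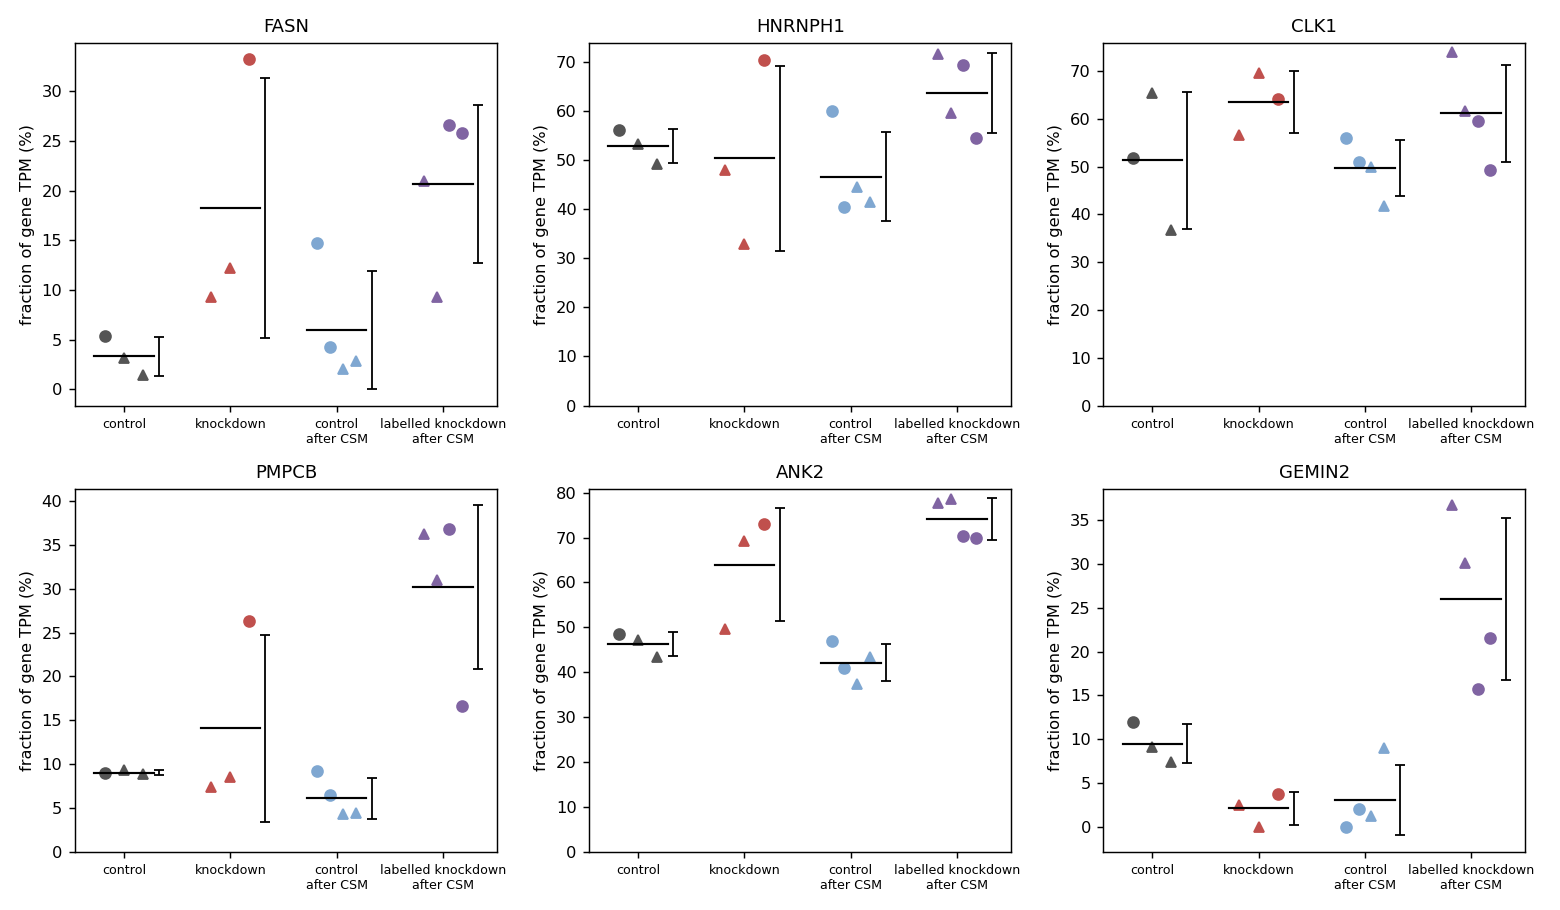
Retained intron fraction, in percent of the gene's TPM, of 6 genes in the 14 libraries; circles are libraries of the short fragment set, triangles of the long set, the line is the group mean and the bar 1 SD. PMPCB, ANK2 and GEMIN2 separate labelled knockdown from control after CSM, whereas FASN, HNRNPH1 and CLK1 overlap there.

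In the contrast of media, the genes named for control cells were CACNB1, a calcium channel subunit, CUL4B, a ubiquitin ligase scaffold, and COMMD1 on the higher side, and LIME1, GMPR2 and MIB2 on the lower. For CACNB1 the fraction was 22.8%, 8.59% and 11.1% in control and 40.8%, 35.9%, 25.9% and 39.1% in control after CSM, with no overlap. The difference was 1.32 (SE 0.33, limma adjusted p = 1). MIB2, a ubiquitin ligase of Notch ligands, had 63.9%, 62.6% and 63.8% in control and 45.3%, 40.9%, 45.7% and 38.8% in control after CSM. Its difference was -1.11 (SE 0.37, adjusted p = 1), and in the labelled knockdown libraries after CSM its fraction was 54.1% to 68.5%.

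In knockdown cells the higher genes with the smallest p-values for CSM, among those with a mean retained intron TPM of at least 1, were CMC1, an assembly factor of cytochrome c oxidase, CKLF, a chemokine-like factor, and again GEMIN2. CMC1 had 2.52%, 1.54% and 2.35% in knockdown and 30.3%, 56.1%, 37.8% and 16.9% in labelled knockdown after CSM. The groups did not overlap, and the difference was 2.28 (SE 0.46, limma adjusted p = 0.348). Lower values were named for HOMER3, LINC-PINT and GINS4. HOMER3, a postsynaptic scaffold protein, had 26.3%, 38.1% and 31.5% in knockdown and 19.9%, 10.7%, 10.2% and 7.50% after CSM, a difference of -1.62 (SE 0.48, limma adjusted p = 0.372).

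MTMR11, a catalytically inactive relative of the myotubularin phosphatases, had the smallest interaction p. Its fraction was 63.1%, 80.3% and 85.4% in control and 67.2%, 35.4% and 44.1% in knockdown, with overlap. After exposure to CSM it was 57.8%, 52.2%, 44.1% and 63.3% in control and 84.3%, 89.7%, 75.6% and 69.1% in labelled knockdown, without overlap. The interaction was 3.25 (SE 0.72, limma adjusted p = 0.797). MTMR11-208, printed above, was at 0 to 6.39 TPM, and its highest values were 6.39 and 6.12 in labelled knockdown after CSM replicates 1 and 3.

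Gene lists were read by role, and a few genes such as HNRNPH1 and CLK1 stand in more than 1 list. Among SR proteins and related regulators, which bind exons and recruit the spliceosome, 23 of 26 genes could be tested, and their median fraction was 28.7%. After CSM 17 of the 23 had a positive difference with a median of 0.57, and 4 (17.4%) lay higher without overlap, where 8.46% of all features and 15% of all retained intron genes did, and 79.8% of the latter were positive. The shares of this and the next lists stand beside these same backgrounds. In regular medium 5 of the 23 were positive with a median of -0.32. SRSF5 had 25.3%, 12.1%, 9.17% and 16.5% in control after CSM and 21.6%, 22.2%, 27.4% and 27.5% in labelled knockdown after CSM, which overlap (difference 0.87, SE 0.48, limma adjusted p = 0.476). SRRM2, a large spliceosomal scaffold, had the highest retained intron TPM of the list, 63.6.

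The CLK, SRPK and DYRK kinases phosphorylate SR proteins. Of the 7 tested, 5 were positive after CSM with a median of 0.43, and 1 (14.3%) lay higher without overlap, near the share of all retained intron genes. CLK1 kept a high fraction in every library. It was 51.8%, 65.4% and 36.7% in control and 56.6%, 69.5% and 64.2% in knockdown. In the libraries after CSM it was 55.9%, 51.0%, 50% and 41.8% in control and 74.1%, 61.7%, 59.6% and 49.2% in labelled knockdown. The groups overlapped in both media, with differences of 0.62 (SE 0.49) and 0.68 (SE 0.42) and limma adjusted p-values of 0.999 and 0.531.

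Of 12 genes known for detained introns, 11 were positive after CSM with a median of 0.56, and none lay higher without overlap, against 8.46% of all features. MAT2A, which makes S-adenosylmethionine and is known for a detained intron, was named after its values were seen. It had a mean fraction of 12.9% and ranged from 5.54% in knockdown replicate 2 to 31.3% in knockdown replicate 3. The transcript printed above, MAT2A-205, was at 4.65, 10.7 and 11.2 TPM in control and 8.62, 0.425 and 6.15 in knockdown. After CSM it was at 7.32, 5.52, 2.39 and 8.39 TPM in control and 35.6, 11.9, 13.9 and 11.8 in labelled knockdown, with no overlap. On its counts edgeR gave a log2 fold change of 0.85 (SE 0.61) after CSM with an adjusted p of 0.891.

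For hnRNP proteins and relatives 14 of 19 (73.7%) were positive after CSM with a median of 0.67, and 2 (10.5%) lay higher without overlap. Spliceosome components were positive in 33 of 35 genes with a median of 0.58, and 2 (5.71%) lay higher without overlap, below the 8.46% of all features. Factors of nonsense-mediated decay and the RNA exosome, which degrade such transcripts, were positive in 19 of 22 with a median of 0.43, and 3 (13.6%) lay higher without overlap, near the 15% of all retained intron genes. In regular medium the medians of these 3 lists were -0.14, -0.13 and 0.13.

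Cytosolic ribosomal proteins had the largest list median after CSM, 1.10, with 63 of 66 genes positive, 29 (43.9%) higher at an unadjusted p below 0.05 in limma and 23 (34.8%) higher without overlap. Over all features 11.8% had such a p in either direction and 8.46% were higher without overlap. Their fractions were low, with a median of 1.73%, and ribosomal protein genes have near-identical pseudogenes among which reads can be split. The median over the list was 1.11%, 0.897%, 0.870% and 0.967% in control after CSM and 4.89%, 2.18%, 1.96% and 2.01% in labelled knockdown after CSM. In regular medium it was 1.41%, 1.21% and 1.56% in control and 1.5%, 0.522% and 2.22% in knockdown. The list median after CSM thus separated the groups, while the leading members RPL4 and RPS23 did not, with differences of 0.14 (SE 0.50) and -0.20 (SE 0.61).

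Hosts of small nucleolar RNAs, whose introns carry these RNAs, were positive in 19 of 21 genes after CSM with a median of 0.74, and 8 (38.1%) lay higher without overlap, against 8.46% of all features and 15% of all retained intron genes. Genes of fatty acid and sterol synthesis, the pathway of the targeted enzyme, were positive after CSM in 21 of 25 (84.0%) with a median of 0.40. In that contrast 4 (16%) lay higher without overlap, and both shares were near the 79.8% and 15% of all retained intron genes. For CSM against regular medium in knockdown cells 8 (32.0%) lay higher without overlap, against 7.08% of all features and 11.7% of retained intron genes. In regular medium 7 of these 25 were positive with a median of -0.35. SREBF1, the transcription factor that drives FASN, had 57.7%, 32.2%, 44.0% and 53.4% in control after CSM and 66.3%, 56.1%, 62.9% and 65.6% in labelled knockdown after CSM. Its groups overlapped, because control replicate 1 exceeded labelled knockdown replicate 2, and the difference was 0.93 (SE 0.45, limma adjusted p = 0.440). Of the 4 check genes of the line that could be tested, 2 were positive. No host marker and no member of the list of abundant noncoding RNA had a retained intron feature in the table. No gene of any list passed the limma threshold in any contrast.

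Single transcripts were tested on rounded estimated counts, 97375 of which passed the filter, 20482 of them retained introns. The quasi-likelihood test of edgeR with Benjamini-Hochberg adjustment called no retained intron transcript in any of the 5 contrasts, where 0.00308% of all transcripts were called in each knockdown contrast, 0.0% for CSM in control cells, and 0.00205% for CSM in knockdown cells and for the interaction. An unadjusted p below 0.05 was reached by 861 retained intron transcripts for knockdown in regular medium (4.2%, against 5.2% of all transcripts) and by 1001 after CSM (4.89%, against 7.4%). For CSM it was reached by 402 in control cells (1.96%, against 2.58%) and by 1339 in knockdown cells (6.54%, against 5.93%), and for the interaction by 978 (4.77%, against 4.85%). DESeq2 called 247, 287, 109, 380 and 274 in the same order, which is 1.21%, 1.4%, 0.532%, 1.86% and 1.34% of the retained intron transcripts against 1.98%, 2.28%, 0.884%, 1.99% and 1.83% of all transcripts, so no share exceeded the background. Limma on log2(TPM + 1) called 0, 1, 0, 0 and 0, beside 0.00513%, 0.00719%, 0.0%, 0.00103% and 0.0% of all transcripts. The 1 call after CSM was GRIK2-231, named after its values were seen.

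After CSM the median log2 fold change of retained intron transcripts was 0.52, against -0.11 for all other transcripts tested. By class the medians were -0.30 for protein-coding transcripts, -0.07 for nonsense-mediated decay, 0.21 for transcripts without a defined coding sequence and 0.38 for lncRNA. For knockdown in regular medium the retained intron median was -0.19 against -0.09. The medians for CSM were -0.13 against 0.03 in control cells and 0.55 against 0.00 in knockdown cells. With the share of 7SL as a covariate the retained intron medians were 0.26 after CSM (against -0.21 for other transcripts) and 0.26 for CSM in knockdown cells (against 0.05). Without the libraries with more than 15% 7SL the former was 0.43 and the latter 0.33. Without knockdown replicate 3 the median for CSM in knockdown cells was 1.06, and without replicate 2 it was 0.31. For knockdown in regular medium the median was 0.0023 without knockdown replicate 2 and -0.64 without replicate 3. In control cells the median for CSM was 0.00 without control replicate 1 and -0.27 without control after CSM replicate 1.

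Members were also compared by features that the class rule did not use. Transcripts that keep a complete intron had a median log2 fold change of 0.49 after CSM (5415 transcripts), as had those that only enter one (0.49, 10467 transcripts), while the 4600 transcripts that could not be located had 0.60. GC content and length were compared only among transcripts with exactly 1 located complete intron. The median was 0.59 where that intron had 13.6% to 48.9% GC (1308 transcripts). Where it had 61.0% to 89.1% GC the median was 0.42 (1306 transcripts). By intron length it was 0.51 for introns of 31 to 156 bases, 0.44 for 157 to 394 and 0.50 for 395 to 6484. At the level of genes the usage difference had a median of 0.22 in 1518 genes with 1 retained intron transcript, 0.48 in 2021 genes with 2 to 3, and 0.63 in 2448 genes with 4 or more. It was 0.32 in genes with a mean TPM of 5.00 to 13.3 and 0.63 in those above 28.6. These medians describe the members and carry no test, and the 0.5 TPM added to both terms weighs more in genes of low level.

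Some fractions differed between the fragment sets. In 149 of the 6007 genes (2.48%) every library of the long set lay above every library of the short set. The order was the opposite in 136 (2.26%). Other transcript classes were not counted this way, so these shares have no background and cannot show a trait particular to retained introns. For LDHB, a subunit of lactate dehydrogenase, the fraction was 0.381% to 2.16% in the short set and 21.7% to 43.3% in the long set. EEF2, the elongation factor that moves the ribosome along the RNA, had 5.06% to 7.32% and 33.4% to 54.5%. On the other side, SNRNP70, the U1 snRNP protein that binds 5′ splice sites, had 46.6% to 58.7% in the short set and 5.44% to 24.0% in the long set. RPL8 had 25.3% to 35.9% and 0.179% to 6.91%. Among the genes with the most retained intron TPM, RPL4, RPS23, RPL14, EEF1A1, ACTB and DRAP1 were also split by fragment set, as given above.

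**Figure D5:**
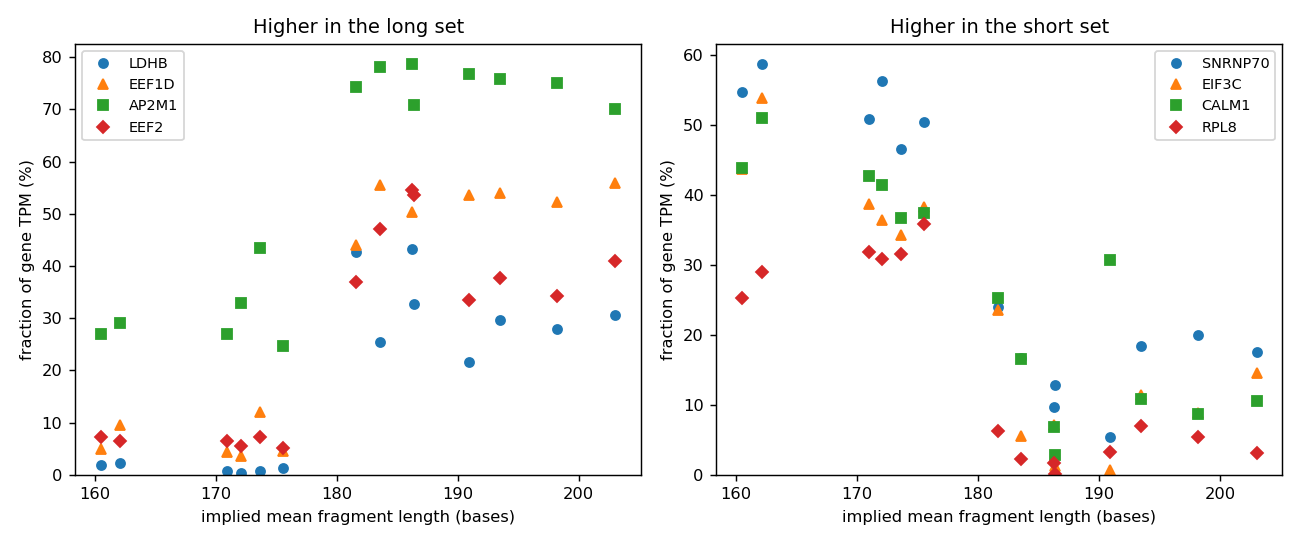
Retained intron fraction, in percent of the gene's TPM, against the implied mean fragment length in bases, 1 point per library and gene, for 4 genes higher in the long set (left) and 4 higher in the short set (right). LDHB lies at 0.381% to 2.16% at 161 to 176 bases and at 21.7% to 43.3% at 182 to 203, and SNRNP70 the other way round at 46.6% to 58.7% and 5.44% to 24.0%.

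The median length of the leading retained intron transcript was 606 bases in the genes higher in the long set, 710 in those higher in the short set and 791 over all genes. LDHB, EEF2, SNRNP70 and RPL8 were named after their values were seen, and the part of fragment length in the group differences of single genes was not tested. With the fragment set as a term in the limma fit, an alternative added after the data were seen, no retained intron feature passed the adjusted threshold, 1400 had an unadjusted p below 0.05 after CSM (23.4%, against 16.7% of all features in that fit) and the median difference stayed at 0.49.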

How the data were processed

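Transcript tables of 14 bulk RNA-seq libraries were used. The authors deposited, per the file headers, estimated counts (NumReads) and TPM per transcript from Salmon. The submitters' processing notes name FastQC, cutadapt, Salmon and GRCh38, while tool versions and the annotation used are not given in these sources. Retained intron is the class in the deposited transcript names. Members and lists were chosen with earlier results of these data known.

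Usage was log2 of retained intron TPM + 0.5 over the TPM of the gene's other transcripts + 0.5, in genes with a mean TPM of at least 5. All 14 libraries shared 1 limma fit (version 3.58.1, mean-variance trend, 10 residual degrees of freedom). Transcripts were tested on estimated counts rounded to whole numbers with edgeR 4.0.16 (TMM, filterByExpr at a minimum count of 10 and a total of 15, quasi-likelihood test). P-values were adjusted by Benjamini-Hochberg over all features. Shares were tested by exact two-sided permutation. DESeq2 1.42.0 and limma on log2(TPM + 1) were alternatives. R 4.3.3 and Python 3.11.15 were used, and the scripts were tested on simulated data. Total counts of 15810287 to 45209466 per library set the counting precision.

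Genes were named by rule: the 12 with the highest retained intron TPM; per contrast and direction the 3 with the smallest p at a mean retained intron TPM of at least 1, since none was called; the 3 most abundant of each list; the 2 genes on either side of the TPM limit; and FASN. A gene given by this rule and a sequence are not reported here. Sequences came from transcripts matched to GENCODE release 29. Replicate numbers were not used to pair libraries in the main fits. Same-numbered libraries of different groups correlated at -0.49 to 0.49 in their deviations from the group means, and 7 of 19 pairs exceeded 0.1. Of the pairs with different numbers, 28 of 54 exceeded 0.1. These correlations cannot show whether libraries were paired in the experiment.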

Additional observations from a re-analysis of the deposited data

Results flagged for a closer look

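In groups of 4, a retained intron fraction far from the other 3 by Dixon's criterion was found in 1 of 128 groups tested, and chance flags about 1 in 20 groups. The fraction of SNHG3, a host of small nucleolar RNAs, was 89.5% in control after CSM replicate 3, against 73.1% to 75.4% in the other 3 libraries of that group.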

How the results depend on the processing

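No retained intron feature passed the limma threshold under the other settings of pseudocount, filter, fit or covariate, except after CSM at a mean gene TPM of at least 1, where 2 (0.0275%, against 0.0246% of all features) passed between labelled knockdown and control (ADGRL3 and IGFBP2). Leaving out 1 library at a time gave 0 to 1 there (ADGRL3, without labelled knockdown after CSM replicate 2) and 0 in the other contrasts. With the replicate block 0 features and 0 retained intron transcripts were called, and the median usage difference after CSM was 0.49. DESeq2 called 247, 287, 109, 380 and 274 retained intron transcripts for knockdown in regular medium, knockdown after CSM, CSM in control cells, CSM in knockdown cells and the interaction, 0.532% to 1.86% of them, where it called 0.884% to 2.28% of all transcripts. A filter of 2 CPM in 3 libraries gave 1 in knockdown in regular medium and 1 for CSM in knockdown cells (DDX1-205 in both), beside 0.0203% and 0.0122% of all transcripts, and limma on log2(TPM + 1) gave 1 after CSM (GRIK2-231); these transcripts were named after their values were seen. Without 1 library at a time edgeR called 0 to 9 for knockdown in regular medium (9 without knockdown replicate 1, 0.0405% against 0.0527% of all transcripts, and 1 without control replicate 3 or knockdown replicate 3, beside 0.00464% and 0.0299%), 0 to 7 for CSM in knockdown cells (7 without knockdown replicate 1, 0.0315% against 0.0462%, and 3 without knockdown replicate 3, beside 0.0365%) and 0 to 2 for the interaction (2 and 1 without the same knockdown libraries, beside 0.0139% and 0.0187%). The median usage difference after CSM was 0.71 at a pseudocount of 0.1 TPM and 0.87 on counts. For knockdown in regular medium it reversed to -0.11 and -0.21 under these settings. For CSM in knockdown cells it was 0.63 at 0.1 TPM, 0.12 at 1 TPM and 0.81 on counts, and for the interaction 0.80, 0.21 and 1.05, or 0.55 with a class TPM of at least 1. Without 1 library at a time these medians were 0.43 to 0.55 after CSM, 0.02 to 0.13 in regular medium, -0.18 to -0.07 for CSM in control cells, 0.22 to 0.36 in knockdown cells and 0.34 to 0.49 for the interaction. The difference in the share of counts without 1 library at a time was 2.04 to 2.94 points after CSM, -1.42 to 0.57 for knockdown in regular medium, -0.91 to -0.0936 for CSM in control cells and 1.46 to 3.45 in knockdown cells. In TPM these ranges were 1.71 to 3.27, -1.55 to 0.605, -0.45 to 0.414 and 1.83 to 3.98. For knockdown in regular medium it reversed to 0.57 points of counts and 0.605 of TPM without the libraries with more than 15% 7SL, and to 1.59 and 2.22 within the short fragment set. For CSM in control cells the TPM difference reversed to 0.414 without those libraries and to 0.587 within the short set, and for CSM in knockdown cells the differences within the short set were 0.0579 points of counts and 0.169 of TPM. The interaction of CACNB1 reversed to 0.18 on counts. The cause of these shifts was not tested. Retained introns with low counts limit the precision: 4211 transcripts had no count in any library.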
